A study of Sus scrofa with 4 samples.

Results

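The models described here are those annotated next to each other on scaffold8242 of the pig assembly used for these data. All models whose identifier consists of evm.model.scaffold8242, a dot and a number were taken, in the order of their model number, which gave 38 of the 18367 models with at least 1 read in any library. The scaffold was selected on its liver values, for its many models with a much higher level in liver than in the other tissues. Liver enrichment on it is therefore a description, and nothing is inferred from it.

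The libraries came from 4 tissues of pigs (Sus scrofa) of the Tibetan breed: liver, kidney, heart and lung, with 1 RNA sequencing library per tissue made from total RNA with a TruSeq kit. The labels of the 4 groups differ only in the tissue. The labels state no genotype, treatment, age or sex and do not say whether the tissues came from 1 animal or from pooled animals. There is no replicate error, so each difference below compares libraries and has no p-value. The tissue labels could not be checked against marker genes, because the identifiers carry no gene names. Libraries held between 4090775 reads (liver) and 14062622 reads (heart) on models. At the median length of the 38 models, 1296 bases, a level of 1 RPKM (reads per kilobase of model, scaled to 1000000 reads on models) stood for 5.30 reads in liver, 7.11 in kidney, 11.5 in lung and 18.2 in heart.

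As background, the liver makes most of the proteins of blood plasma, and a small number of such genes can take up much of its messenger RNA. Genes that lie side by side on a chromosome are in many cases copies of 1 ancestral gene, and neighbours can also share regulatory DNA. Neighbouring genes with different tissue patterns are common as well. The files pair none of the models with a gene name, and 0 of the 38 identifiers matched the reference tables of pig genes, so models are called by their number and no function or sequence is given. The number gives the order on the scaffold and says nothing of distance in bases or of strand. Numbers ran from 1 to 42, and 4 of them (5, 9, 14 and 26) were listed in none of the 4 tables.

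The enrichment rule asked for at least 10 RPKM in the tissue, with 1 RPKM added to every level and the sum at least 5-fold above that of the highest other library. By this rule 7 of the 38 models (18.42%) were enriched in liver, the contrast for which the scaffold was chosen, where 1.56% of all models were. In heart 2 models were enriched (2.08% of all models), in lung 1 (3.67%) and in kidney 0 (2%). The remaining 28 models met the rule in none of the tissues. This count follows from those above, including the 7 on which the scaffold was chosen. Adding 1 RPKM makes the folds of models at low level too small. In bulk tissue, fewer cells of a type and less RNA per cell cannot be told apart.

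In the order of model numbers, liver-enriched models lay at 3 places: at the first number (model 1), alone at model 17, and in an unbroken run from model 29 to model 33. The run held 5 consecutive models. It took 1.71% of all liver reads, against 0.0353% of kidney, 0.0131% of lung and 0.00854% of heart reads. All 38 models together took 1.81% of liver reads (exact 95% interval 1.80 to 1.83), 0.148% of lung reads (0.146 to 0.151), 0.116% of heart reads (0.114 to 0.118) and 0.107% of kidney reads (0.104 to 0.110). Without the run, the remaining models took similar shares in liver (0.103%) and heart (0.107%), more in lung (0.135%) and less in kidney (0.0715%). These remaining models still included the liver-enriched models 1 and 17, and model 17 alone took 0.0489% of liver reads. The shares are as deposited, without median-ratio scaling.

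**Figure D1:**
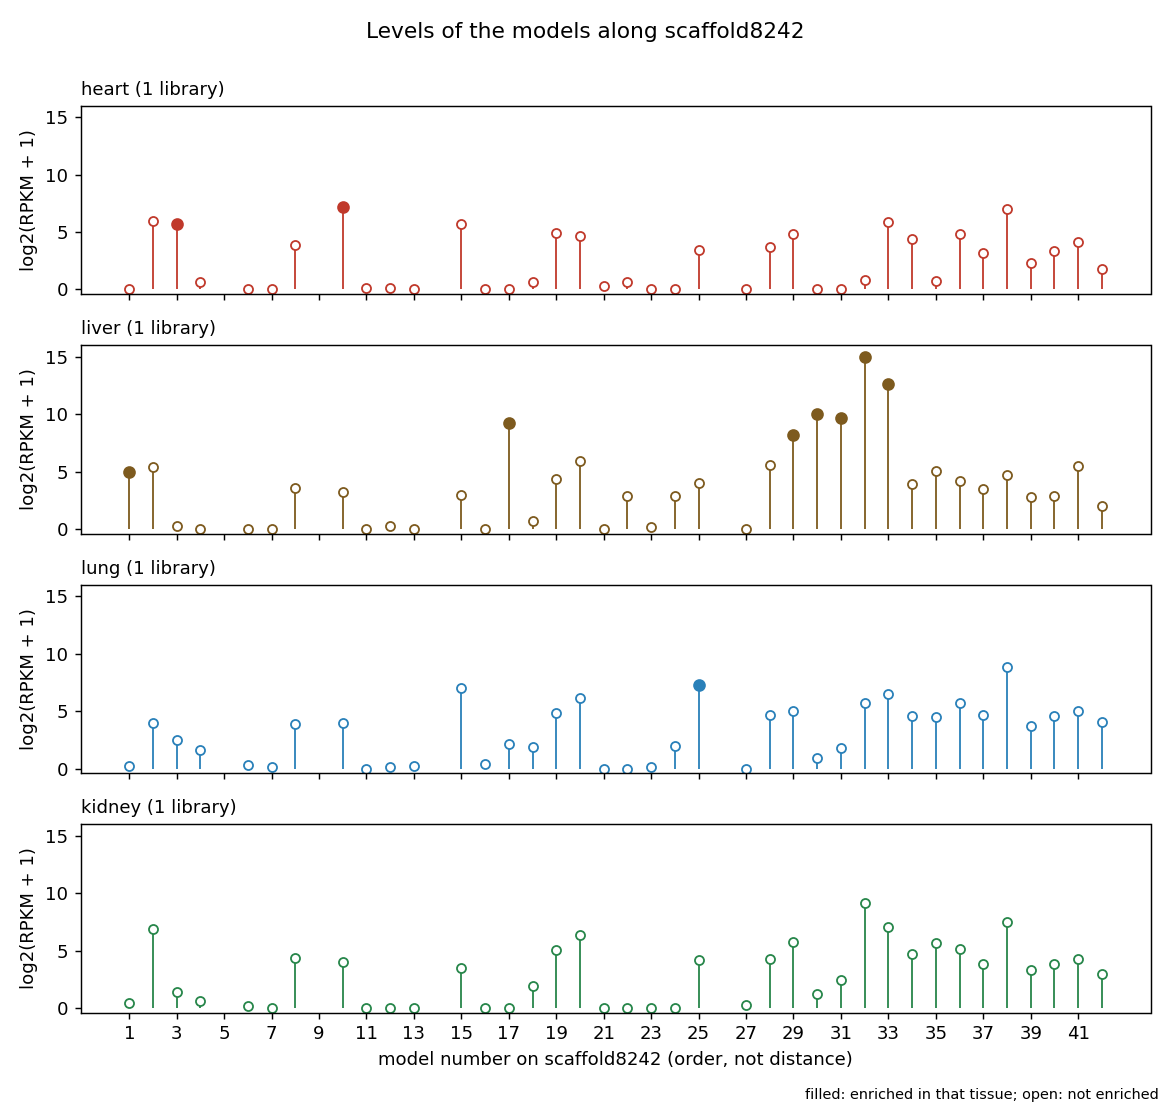
Level of each model along scaffold8242 in the 4 libraries (1 panel per tissue, 1 library each), as log2(RPKM + 1) against model number. Filled points are models enriched in that tissue and open points are not; the run from model 29 to model 33 stands out in liver, where model 32 reaches 33037 RPKM.

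Model 32, of 291 bases, had the highest level on the scaffold. It stood at 33037 RPKM in liver, 573 in kidney, 51.6 in lung and 0.733 in heart. The liver level rested on 39328 reads and the heart level on 3 reads. Only 1 model in the liver library had a higher RPKM, and by reads model 32 ranked 12. It alone held 53.0% of the scaffold's liver reads and 15.6% of its kidney reads. Liver exceeded kidney by 57.6-fold (exact 95% interval of the ratio of reads, 54.0 to 61.6) and lung by 640-fold (540 to 765). Against heart the ratio was 45065, with an interval of 15419 to 218535 set by the 3 heart reads. The 4 libraries were far apart in the order liver, kidney, lung, heart, with no overlap of their counting intervals.

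Model 32 was also the only one of the 38 to meet the rule for liver and kidney together (both at 10 RPKM or more and each at least 5 times both heart and lung, on the RPKM + 1 scale), which 1.26% of all models met. It was 1 of 2 models that met the mirror rule for low heart levels (every library but heart at 10 RPKM or more and each at least 5 times heart, with 1 RPKM added), met by 0.588% of all models. The second was model 35, at 50.3 RPKM in kidney, 32.6 in liver, 21.5 in lung and 0.677 in heart. Model 35 is the shortest of the 38, at 210 bases, and its heart level rested on 2 reads. Lung exceeded heart by 31.8-fold there, with a wide interval of 8.24 to 271. No model met the mirror rule in liver, lung or kidney, where 1.12%, 0.376% and 0.0762% of all models did.

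Model 33, of 798 bases, followed at 6313 RPKM in liver, 133 in kidney, 86.3 in lung and 59.1 in heart. It ranked 11 in the liver library by RPKM and 25 by reads. Liver exceeded kidney by 47.4-fold (43.7 to 51.6), lung by 73.1-fold (67.5 to 79.4) and heart by 107-fold (98.9 to 116). In contrast to model 32, it was present well above 1 RPKM in every library.

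Models 30 and 31, of 1092 and 1149 bases, both had 0 reads in heart and low levels in kidney and lung. Model 30 stood at 1016 RPKM in liver, 1.34 in kidney and 0.931 in lung, with 0 reads in heart (a floor of 3 counts is 0.195 RPKM there). Model 31 stood at 821 RPKM in liver, 4.28 in kidney and 2.36 in lung, with 0 reads in heart (floor 0.186 RPKM). For both, the levels outside liver rested on few reads, 8 and 27 in kidney and 9 and 24 in lung. Liver exceeded kidney by 761-fold for model 30 (386 to 1764) and by 192-fold for model 31 (131 to 291). Against this floor in the heart library, liver was at least 5201-fold higher for model 30 and at least 4420-fold higher for model 31.

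Model 29, of 1368 bases, opened the run and was the weakest case in it. It stood at 285 RPKM in liver, 53.7 in kidney, 31.95 in lung and 27.8 in heart. Liver was the only library apart from the others by a wide margin, and kidney lay above lung and heart, whose counting intervals overlapped. Its liver level was 5.24 times that of kidney on the RPKM + 1 scale, just inside the 5-fold limit. The counting interval of the RPKM ratio, 4.76 to 5.94, spanned that limit. After median-ratio scaling (each library divided by its median ratio to the geometric mean of the 4) the fold on the RPKM + 1 scale was 10.7, above the limit.

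The liver-enriched models thus differed in what the other tissues held. Outside liver, models 1, 17, 30 and 31 reached at most 4.28 RPKM in any library. Models 29 and 33 were at 27.8 RPKM or more in each of the 4 libraries and were the only liver-enriched models of the scaffold at 1 RPKM or more in all 4. Model 32 lay between, with kidney and lung high and heart under 1 RPKM. Relative to its liver level, kidney held 18.8% for model 29, 2.11% for model 33, 1.73% for model 32, 0.522% for model 31 and 0.131% for model 30. Lung held 11.2% for model 29, 1.37% for model 33, 0.288% for model 31, 0.156% for model 32 and 0.0916% for model 30.

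**Figure D2:**
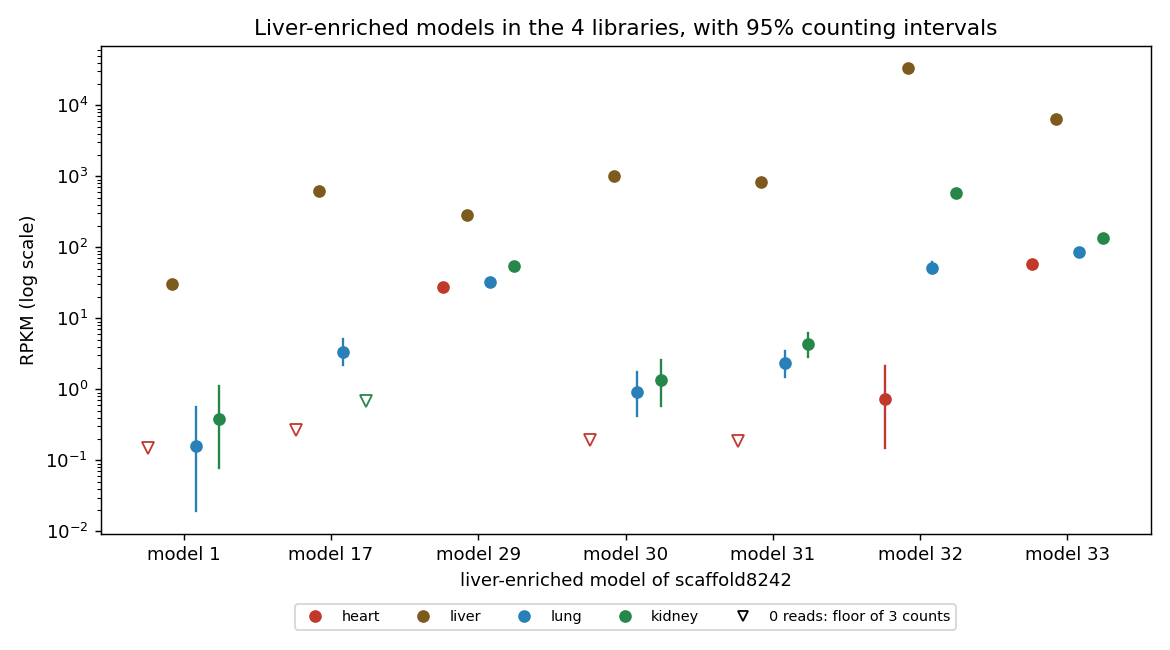
RPKM (log scale) of the 7 liver-enriched models of scaffold8242 in the 4 libraries, with exact 95% Poisson intervals; open triangles mark the floor of 3 counts where a library had 0 reads. Liver lies above all other libraries for each model, while the other 3 libraries range from 0 reads (models 1, 17, 30 and 31 in heart and model 17 in kidney) to 573 RPKM (model 32 in kidney).

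The order of levels inside the run, compared per length within each library, was not the same in the 4 tissues. In liver it was model 32, 33, 30, 31 and 29, and the interval of each ratio between neighbours in that order excluded 1. In kidney the order was 32, 33, 29, 31 and 30, and in lung it was 33, 32, 29, 31 and 30. In heart models 33 and 29 led, model 32 had 3 reads and models 30 and 31 had none. So model 29, the lowest of the run in liver, stood above models 30 and 31 in the other 3 libraries.

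The neighbours 32 and 33 changed places between libraries. The RPKM of model 32 was 5.23 times that of model 33 in liver (5.15 to 5.32) and 4.30 times in kidney (3.88 to 4.78). In lung model 33 was the higher, by 1.67-fold (1.38 to 2.03), and in heart by 80.6-fold (27.5 to 391.8). Models 30 and 31 also changed places: model 30 was 1.24 times model 31 in liver (1.19 to 1.29), whereas model 31 was 3.21 times model 30 in kidney (1.42 to 8.17) and 2.53 times in lung (1.14 to 6.20). The intervals hold counting error alone, as these reads carry no molecular identifiers and several can stem from 1 molecule.

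By definition, the run ends where the next model does not meet the rule. Before the run, model 28 stood at 45.3 RPKM in liver, 24.7 in lung, 18.7 in kidney and 11.9 in heart. It was highest in liver, by 1.80-fold over lung on the RPKM + 1 scale and by 3.96-fold after median-ratio scaling. Neither fold met the rule. After the run, model 34 stood at 25.6 RPKM in kidney, 23.4 in lung, 20.5 in heart and 14.3 in liver. Within the liver library model 33 was 441 times model 34, against 5.20 times in kidney, 3.69 in lung and 2.88 in heart.

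Model 17, of 795 bases, stood apart from the run. It had 2001 reads in liver, a level of 615 RPKM, and 24 reads in lung, a level of 3.41 RPKM. Heart and kidney had 0 reads, with floors of 0.268 and 0.688 RPKM. Liver exceeded lung by 180-fold (121 to 282) and was at least 895-fold higher than kidney and at least 2293-fold higher than heart against the floor of 3 counts. Its neighbours showed none of this level. Model 16 had 1 read in all, in lung, and model 18 stood at 2.89 RPKM in kidney, 2.69 in lung, 0.647 in liver and 0.564 in heart.

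Model 1, of 1435 bases, was the lowest of the 7 at 29.98 RPKM in liver, from 176 reads. It had 3 reads in kidney (0.381 RPKM), 2 in lung (0.157 RPKM) and 0 in heart (floor 0.149 RPKM). Liver exceeded kidney by 78.7-fold, with an interval of 26.5 to 385 set by the few kidney reads. Its only neighbour, model 2, was highest in kidney. It stood at 114 RPKM in kidney, 60.8 in heart, 40.4 in liver and 14.5 in lung.

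Just outside the liver rule lay model 22, of 261 bases. It stood at 6.56 RPKM in liver, from 7 reads, and at 0.545 in heart, from 2 reads, with 0 reads in lung and kidney. Its fold on the RPKM + 1 scale was 4.89, and its level was also below 10 RPKM. Next below was model 24, at 6.51 RPKM in liver and 2.94 in lung with 0 reads in heart and kidney, a fold of 1.91. On the other side of the limit model 29 was the nearest, followed by model 1 at 22.4-fold.

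Heart-enriched models lay in the first part of the model order and next to no other enriched model of the same tissue. Model 10, of 3111 bases, stood at 144 RPKM in heart, against 14.995 in lung, 14.8 in kidney and 8.25 in liver. It was the highest of the 38 models in heart and held 38.8% of the scaffold's heart reads. Heart exceeded lung by 9.63-fold (8.72 to 10.7) and kidney by 9.74-fold (8.59 to 11.1), and the counting intervals of the lung and kidney levels overlapped. Model 11 after it had 1 read in all 4 libraries together.

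Model 3, of 2442 bases, stood at 51.8 RPKM in heart, against 4.67 in lung, 1.72 in kidney and 0.200 in liver. Heart exceeded lung by 11.1-fold (9.07 to 13.7) and liver, with 2 reads, by 259-fold (71.5 to 2137). It was thus low in liver within 2 places of model 1, which was enriched there.

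The lung-enriched model was model 25, of 1211 bases, at 156 RPKM in lung, 16.7 in kidney, 15.5 in liver and 9.98 in heart. Lung exceeded kidney by 9.35-fold (7.71 to 11.4). The other 3 libraries lay within a narrow range. After median-ratio scaling the fold dropped to 4.33 on the RPKM + 1 scale, and the model no longer met the rule. Model 15 shared lung as its highest library at 125 RPKM, with 50.2 in heart, 10.5 in kidney and 6.77 in liver, and was not enriched in lung.

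Across the scaffold, 18 of the 38 models were at 1 RPKM or more in all 4 libraries (47.4%, against 55.8% of all models). Another 11 reached 1 RPKM in 1 to 3 libraries, among them model 4, at 2.14 RPKM in lung and below 1 RPKM elsewhere. The remaining 9, models 6, 7, 11, 12, 13, 16, 21, 23 and 27, were below 1 RPKM everywhere (23.7%, against 16.4% of all models), with at most 3 reads in any library and a highest level of 0.320 RPKM. All of them lay before the run of liver-enriched models. By library, 26 models were detected in liver, 26 in lung, 24 in kidney and 19 in heart. The matching shares of all models were not computed for these counts or for the 11 models above. Neither can therefore be called particular to the scaffold.

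Of the 18 models detected at 1 RPKM in each library, 14 were enriched in none, against 9651 of the 10247 such models of the series. The others were models 10, 25, 29 and 33. Models 29 and 33 are among the liver-enriched models on which the scaffold was chosen, which lowers the count here. Between their highest and lowest libraries these 14 differed by 1.58-fold to 17.04-fold on the RPKM + 1 scale, with a median of 3.01, against a median of 3.54 over the 9651 such models of the series. The most even as deposited was model 19, at 31.5 RPKM in kidney, 28.7 in heart, 27.3 in lung and 19.6 in liver. After median-ratio scaling models 34 and 36 were more even, with highest over lowest at 1.36 and 1.37 against 1.59 for model 19. Model 8 was close to model 19 as deposited, at 19.2 RPKM in kidney, 13.7 in lung, 13.5 in heart and 11.1 in liver. Model 20 ranged from 24.9 RPKM in heart to 83.0 in kidney.

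The last stretch, models 34 to 42, held 9 models and no enriched one. In 8 of the 9 all libraries were at 1 RPKM or more, the exception being model 35 in heart. Lung was the highest library for 6 of them (36, 37, 38, 39, 40 and 42), kidney for 34 and 35, and liver for 41. Model 38, of 675 bases, was the highest of the scaffold in lung at 454 RPKM, with 176 in kidney, 129 in heart and 25.7 in liver. Heart was 5.01 times liver there (3.94 to 6.45), or 4.86 times on the RPKM + 1 scale, just short of the mirror rule for liver. It exceeded its neighbour model 39 by 37.8-fold in lung (33.4 to 42.8), 32.1-fold in heart (27.1 to 38.3) and 19.7-fold in kidney (16.3 to 23.99), but by 4.44-fold in liver (3.12 to 6.33).

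The other models of the stretch with lung highest had narrower ranges than model 38: model 36 ran from 16.8 RPKM in liver to 50.6 in lung and model 40 from 6.42 in liver to 22.2 in lung. Model 37 ran from 8.05 RPKM in heart to 24.5 in lung and model 39 from 4.01 in heart to 12.03 in lung.

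Model 41 stood at 44.6 RPKM in liver, 30.6 in lung, 18.6 in kidney and 16.2 in heart, and was the highest of this stretch in the liver library. Model 42, the longest of the 38 at 4185 bases, stood at 15.1 RPKM in lung, 6.66 in kidney, 2.98 in liver and 2.40 in heart. In the stretch directly after the liver-enriched run, levels in liver thus lay between 2.98 and 44.6 RPKM.

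The scale mattered for which tissue was highest. As deposited, liver was the highest library for 13 models, lung for 13, kidney for 8 and heart for 4. After median-ratio scaling, which moved all liver values by 0.70 on the log2 scale, heart by 0.11, kidney by -0.34 and lung by -0.47, liver was highest for 19, lung for 12, heart for 4 and kidney for 3. In models 34 to 42 lung was then highest for 5 and liver for 4. The 13 and 19 models highest in liver include the 7 liver-enriched ones on which the scaffold was chosen. The shares of all models highest in each library were not computed, so none of these counts is set against the series. The 7 liver-enriched models met the rule under both scalings, and model 22 joined them, giving 8 where 2.28% of all models met it.

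**Figure D3:**
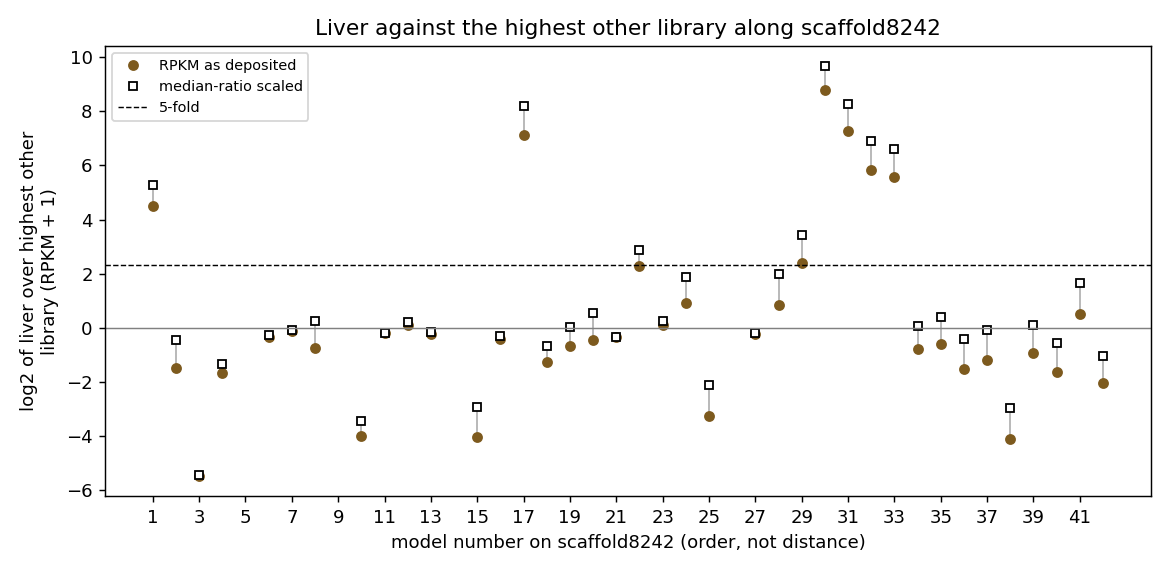
Log2 ratio of liver to the highest other library, on the RPKM + 1 scale, for each of the 38 models in scaffold order, as deposited (filled circles) and after median-ratio scaling (open squares); the dashed line is 5-fold. Models 1, 17 and 29 to 33 lie above the line under both, model 22 under median-ratio scaling only, and model 29 is the nearest above it as deposited.

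Over the 33 steps between consecutive numbers, the median absolute step in log2(RPKM + 1) was 2.62 in liver, 1.69 in heart, 1.47 in kidney and 1.34 in lung. Over all 12804 such steps of the series the medians were 1.86 in liver, 1.99 in heart, 2.02 in kidney and 1.88 in lung, so the scaffold's median step was above that of the series in liver, the tissue it was chosen on, and below it in the other 3. The largest step on the scaffold was in liver, 9.27 from model 16 to model 17.

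In length the 38 models resembled the series, with 89.5% of lengths being a multiple of 3, as for 89.5% of all models, and a median of 1296 bases against 1278. The 7 liver-enriched models had lengths from 291 to 1435 bases with a median of 1092. Among the 10 enriched models, the lengths of models 1 and 25 were not multiples of 3.

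Among 3535 scaffolds with a listed model, scaffold8242 had the most liver-enriched models, which is how it was chosen. Next came scaffold7461 with 5 of 19 models and scaffold43047 with 5 of 41. Of the 84 scaffolds with 30 or more models, 44 had 0. Of consecutive pairs, 4 of 33 on the scaffold were both liver-enriched, against 0.242% of the 12804 pairs of the series, a count that includes these 4. Liver-enriched models formed 231 single places, 21 runs of 2, 3 runs of 3 and the 1 run of 5 described here. Of the 287 liver-enriched models, 19.5% had a liver-enriched model directly beside them, a share that includes the run of 5. The matching share for all models was not computed. By the count of enriched models, other tissues led on some scaffolds, of which picked examples follow. Here scaffold46278, with 126 models, had 10 enriched in lung and 2 in liver, and scaffold31207, with 8 models, had 5 enriched in kidney and 0 in liver. By share of reads, scaffold46278 was highest in kidney (2.09%), against 1.11% in liver, 1.07% in lung and 0.580% in heart.

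**Figure D4:**
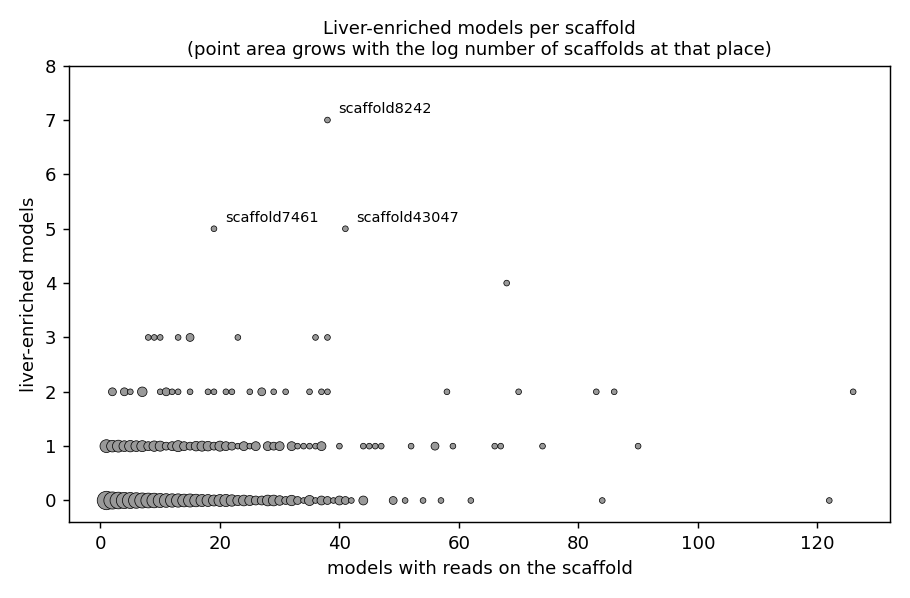
Number of liver-enriched models against the number of models with reads for each of the 3535 scaffolds; a point can stand for several scaffolds and its area grows with the log of their number. Scaffold8242, chosen for this count, lies highest with 7 of 38, followed by scaffold7461 and scaffold43047 with 5 each.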

How the data were processed

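For each of the 4 libraries the authors deposited, per the file headers, a whole-number read count per gene model, the model length, the library total and an RPKM, the count scaled to length in kilobases and to 1000000 reads of the total. TopHat is named in the submitters' processing notes. Its version, the read counter, the use of strand, reads with several matches, annotation and genome build were each not given in the sources used here, so reads of near-identical or overlapping neighbours may have been split or shared. A model absent from a table was taken as 0 reads.

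The members, rules and alternatives were chosen with earlier results of these data known. Models given in full were those enriched in any tissue or in liver and kidney, the highest per library, the 2 nearest the 5-fold limit on each side in liver and those flanking the liver-enriched places. The mirror rule for tissues other than liver, the stretch of models 34 to 42 and the examples among evenly expressed models were chosen after values were seen. The plan used no test, since each tissue had 1 library. Intervals are exact at 95% (Poisson for counts, Clopper-Pearson for shares and ratios), and cover counting error only. Where a library had 0 reads, a floor of 3 counts was used. Median-ratio factors came from the 10247 models detected in each of the libraries. The rule for enrichment in a single tissue was run on simulated counts that held counting noise only. Raised levels were simulated only for models in a middle range of mean RPKM. Models 1, 32 and 33 lie outside that range, so the simulation does not cover their calls. The rule for liver and kidney together and the mirror rule were not simulated. Scripts ran under Python 3.11.15 with scipy 1.17.1, numpy 2.4.6, pandas 2.3.3 and, for plots, matplotlib 3.10.9.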

Additional observations from a re-analysis of the deposited data

How the results depend on the processing

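No paired analysis was possible because there was a single library for each tissue, and none could be left out for the same reason. The 7 liver-enriched models were called under both other pseudocounts, a 3-fold minimum, a level minimum of 1 RPKM, both other scalings and thinning to 4090775 reads. A 10-fold minimum removed model 29, which left a longest run of 4 and 3 consecutive pairs. Keeping models listed in all 4 tables gave 3 liver-enriched models (29, 32 and 33), 1 consecutive pair and a longest run of 2, since the other 4 have 0 reads somewhere. Enriched models in heart were 0 at a 10-fold minimum, and in lung 0 at a 10-fold minimum and 0 under median-ratio scaling. Models depleted in liver were 1 (from 0) at a pseudocount of 0.01 and 1 at a 3-fold minimum. Counting any read gave 29 models detected in heart (from 19). Among these changed settings, the share of all models was computed only for liver enrichment under median-ratio scaling. The other counts are therefore not set against the series, and a drop or rise in them cannot be called particular to the scaffold. Without the 10 models of most reads in each library, the scaffold's share was 2.49% in liver, 0.157% in lung, 0.140% in heart and 0.116% in kidney. Without its own member of most reads it was 0.852% in liver, 0.117% in lung, 0.0901% in kidney and 0.0710% in heart. The 92 other counts and shares stayed within 1.5 times or within their interval. Of 40 log2 ratios of enriched models, 0 changed sign, 15 left the counting interval and 25 lay inside it. Depth limits the low levels: the ratios against heart, lung and kidney for models 1, 17, 30 and 31 rest on 27 reads or fewer in the other library.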
